A study of Mus musculus with 19 samples.

Results

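Thymocytes of 2 MHCI-/- mice were compared with thymocytes of 2 wild-type mice that had been sorted in the same way and processed in the same experiment (4 of the 19 samples of the series). MHCI-/- mice (replicates 1 and 2) were of the B6.129P2-B2m tm1Unc/DcrJ line, which lacks functional *B2m*, and the controls (replicates 2 and 3 of the sorted wild-type group) were C57BL/6 mice. All were females of 4 to 8 weeks, no agent was given, and all 4 thymi were sorted for live TCRβ+CD5+ cells, so that cells before TCR expression were largely left out in both groups. CITE-seq was used, in which antibodies carrying DNA tags are bound to cells before capture, and RNA and antibody molecules are then counted as unique molecular identifiers (UMIs) in each cell. After removal of cells with more than 15% mitochondrial UMIs or fewer than 200 genes, 4732 and 2471 wild-type cells and 4402 and 3616 MHCI-/- cells remained of the 85389 barcodes in the series. A further sorted wild-type mouse (replicate 1), run in another experiment, and 2 MHCII-/- mice of the same experiment are quoted where they bear on a value.

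*B2m* encodes β2-microglobulin, the light chain that MHC class I heavy chains need to reach the cell surface. Developing thymocytes that carry both CD4 and CD8 are selected by their T cell receptor, and recognition of MHC class I directs them to the CD8 lineage while MHC class II directs them to the CD4 lineage. CD1d, which selects natural killer T (NKT) cells, and other class I-like molecules also pair with β2-microglobulin.

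The deleted gene was read first. *B2m* (ENSMUSG00000060802, chromosome 2, 122147686 to 122153083 in GRCm38) was counted at 923 and 971 CPM in the wild-type mice and at 48.7 and 48.3 CPM in the MHCI-/- mice, where CPM is UMIs per 1000000 RNA UMIs of the mouse. Its level did not overlap between the groups, and the log2 fold change of MHCI-/- over wild type was -4.28 ± 0.13 (SE, n = 2 and 2, adjusted p = 9.92e-05, edgeR quasi-likelihood test with Benjamini-Hochberg adjustment over all genes tested, as for all adjusted p-values here). The same held in the CD4+CD8a- gate, at 1128 and 1251 against 66.7 and 62.4 CPM, and in the CD4+CD8a+ gate, at 514 and 416 against 22.3 and 20.1 CPM. The assay counts the 3′ end of transcripts, and the sources used here do not say where the disrupted part lies relative to it.

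The median was 4151 and 4510 RNA UMIs per kept cell in wild-type mice and 3239.5 and 5002 in MHCI-/- mice, and 3029.5 and 3631 against 2208 and 3443 antibody UMIs, so that MHCI-/- replicate 1 was the shallowest lane in both. Pairs of lanes shared 1 to 12 cell barcodes. Markers of other cell types, summed in CPM over all cells, were 318 and 384 in wild-type and 482 and 252 in MHCI-/- mice for B cells, 189 and 189 against 234 and 185 for myeloid and dendritic cells, 81.3 and 72.1 against 75.0 and 89.8 for epithelial and stromal cells, and at most 0.168 for erythroid cells. The B cell, myeloid and epithelial sums overlapped between the groups, and no tested member of these lists passed the test. Cell cycle genes were summed at 3083 and 5931 CPM in wild-type mice and 4607 and 2953 CPM in MHCI-/- mice, so that the wild-type mice differed from each other by more than the groups did.

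CD4-CD8a+ cells were nearly absent from the sorted MHCI-/- thymocytes. Cells were gated on CD4 and CD8a antibody counts per 10000 antibody UMIs of the cell, with thresholds of 61.2 for CD4 and 97.4 for CD8a, at the valleys of the density pooled over the 4 lanes. The CD4-CD8a+ gate held 9.26% (438 cells) and 12.7% (315 cells) of wild-type cells, and 0.386% (17 cells) and 0.166% (6 cells) of MHCI-/- cells. The mean was 11% ± 2.5 against 0.276% ± 0.156 (SD, n = 2 each), 39.9 times lower, and the groups did not overlap. The size of this ratio rests on 17 and 6 cells. The CD4+CD8a- gate held 40.4% and 46.6% of wild-type cells and 58.1% and 60.2% of MHCI-/- cells, again without overlap. The CD4+CD8a+ gate held 49.4% and 39.5% against 41.0% and 39.1%, which differed by less than the spread between the wild-type mice. The CD4-CD8a- gate held 0.951% and 1.13% against 0.477% and 0.553%. An exact permutation test over mice cannot go below p = 0.333 with 2 against 2 (two-sided), and gave that value for every gate but CD4+CD8a+ (p = 0.667).

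**Figure D1:**
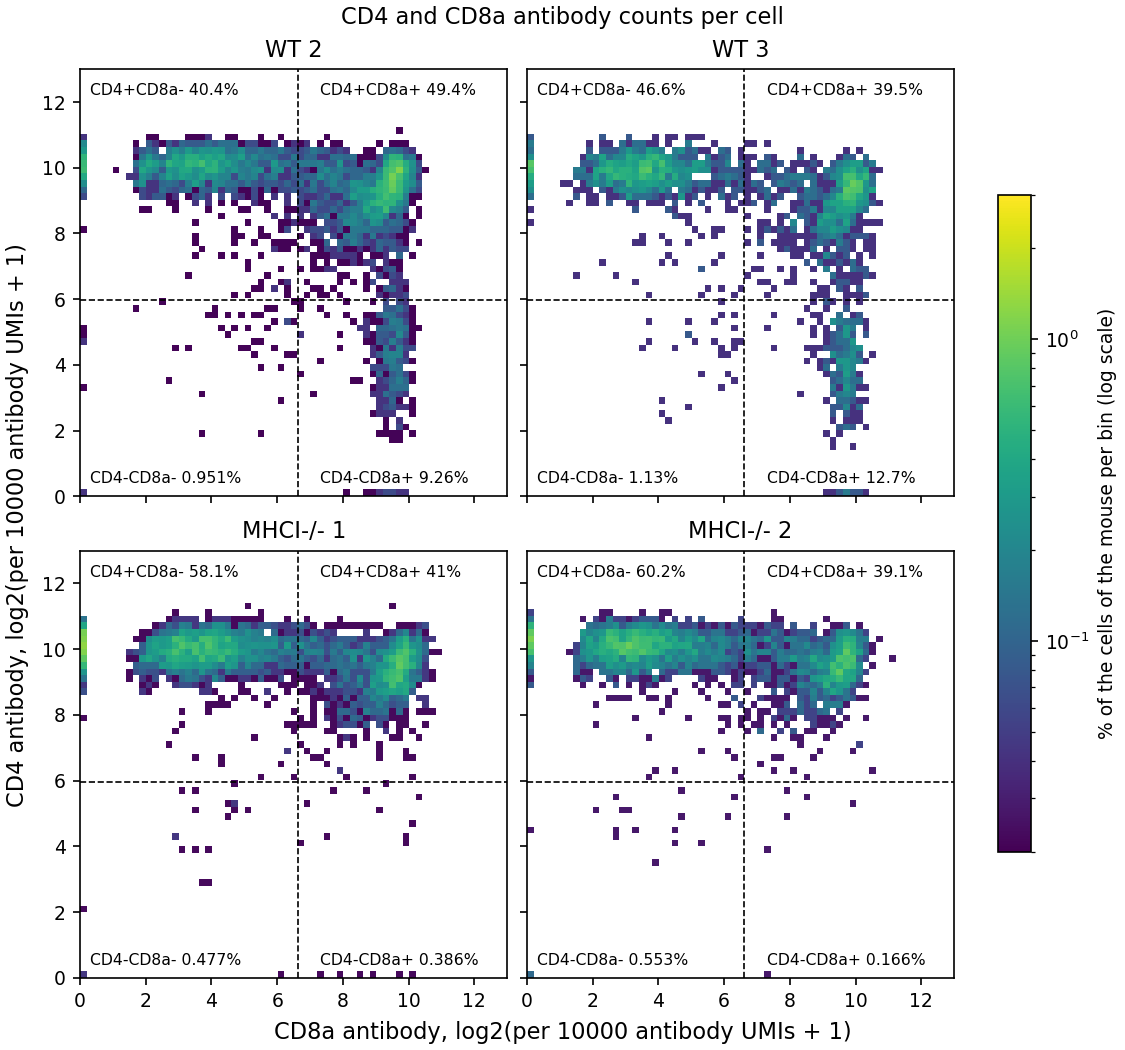
CD4 (vertical) against CD8a (horizontal) antibody counts per cell, as log2 of the count per 10000 antibody UMIs plus 1, with 1 panel per mouse. Color gives the percent of the cells of the mouse in each bin, dashed lines are the thresholds, and the lower right corner (CD4-CD8a+) holds 9.26% and 12.7% of cells in the wild-type mice and 0.386% and 0.166% in the MHCI-/- mice.

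The share of CD4-CD8a+ cells depends on where the CD4 threshold falls in MHCI-/- lanes, which hold few CD4-negative cells. With 1 threshold per lane the share was 0.227% and 0.138% in MHCI-/- mice and 10.3% and 12.7% in wild-type mice, 62.9 times lower in the mean. An earlier version of the threshold rule, which ignored modes under 1% of the highest and was replaced after its shares were seen, gave 13.5% and 11.4% in MHCI-/- mice when applied per lane. It placed the CD4 threshold of those lanes at 543 and 568 per 10000, against 98.7 and 57.9 in the wild-type lanes, and the CD4-bright mode of the MHCI-/- lanes lay at 968 and 1052. The wild-type mouse of the other experiment had 4.97% of cells in this gate, and both MHCII-/- mice had 18.4% and 16.9%.

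The few MHCI-/- cells in the CD4-CD8a+ gate are described by their values, since the 2 MHCI-/- mice differed from each other there. Their UMIs were summed over 17 cells (177416 UMIs) and 6 cells (46446 UMIs), against 3234227 and 2450844 UMIs in wild type. The median CD8a antibody count, which sets the gate, was 476 and 232 per 10000 in these cells against 728 and 817 in wild type. Their median depth was 3783 and 6752.5 RNA UMIs against 6774.5 and 7147, and 1535 and 3038 antibody UMIs against 3451.5 and 3864, and the part of depth in the values below was not tested. *Cd8b1*, which encodes the CD8β chain, was counted in 12 of 17 and 4 of 6 of these cells, at 434 and 344 CPM against 1402 and 1186 CPM in wild type. *Klf2*, a transcription factor of mature thymocytes, stood at 559 and 666 CPM in wild type and at 78.9 CPM (14 UMIs) and 258 CPM (12 UMIs, all in 1 cell) in MHCI-/- mice. *Nkg7*, a cytotoxic granule protein, stood at 543 and 501 CPM against 22.5 (4 UMIs) and 237 CPM (11 UMIs). *Runx3*, the transcription factor that specifies the CD8 lineage, stood at 252 and 237 CPM against 39.5 (7 UMIs) and 64.6 CPM (3 UMIs). Summed markers of some other cell types were higher in both MHCI-/- mice. They were 55.7 and 24.1 against 513 and 323 CPM for γδ T cells. For myeloid and dendritic cells they were 125 and 118 against 451 and 1486 CPM. The B cell markers summed to 263 and 296 against 614 and 689 CPM. In the CD4+CD8a+ gate of the same wild-type mice the B cell markers summed to 555 and 742 CPM. Their level alone therefore does not mark B cells among these MHCI-/- cells. Epithelial and stromal markers overlapped, at 62.5 and 51.4 against 50.7 and 64.6 CPM.

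*Dntt*, the terminal transferase of receptor rearrangement, was counted 105 times over 9 of 17 cells of replicate 1 and not in the 6 cells of replicate 2, and stood at 592 CPM against 68.3 and 47.7 CPM in wild type. *Cdk1*, a mitotic kinase, was counted 62 times over 5 of 17 cells of replicate 1 with 30 UMIs in a single cell. It was counted in 35 of 438 and 46 of 315 wild-type cells. *Gzma*, granzyme A, was counted 145 times over 6 of 17 cells of replicate 1 with 60 UMIs in a single cell. It was counted in 12 of 438 and 10 of 315 wild-type cells. Neither gene was counted in the 6 cells of replicate 2. In replicate 2, *Ccl5* was counted 72 times over 2 of 6 cells, with 42 UMIs in a single cell, against 11 of 438 and 1 of 315 wild-type cells with a UMI. *Ikzf2* was counted 51 times over 4 of 6 cells, with 28 UMIs in a single cell, and in 241 of 438 and 177 of 315 wild-type cells. The median CD24 antibody count, which falls with maturation, was 208 and 99.1 per 10000 in these MHCI-/- cells against 28.6 and 23.7 in wild type. The RNA test of this gate used replicate 1 alone for MHCI-/-, since replicate 2 was under 10 cells, and the lone sample was assumed to vary like wild type. It therefore compares 1 mouse with wild type, not the genotypes. It called 839 of 9413 genes (8.91%), 343 higher (3.64%) and 496 lower (5.27%), on 17 cells. By library size in place of TMM it called 680 higher and 468 lower, so that the balance of directions turned with the scaling. With 1 threshold per lane it called 162 genes, 11 higher and 151 lower, of which 65 were shared with the 839. Intervals for sums of so few cells cover counting error only: the 4 UMIs of *Nkg7* in replicate 1 allow 6.14 to 57.7 CPM and the 11 UMIs in replicate 2 allow 118 to 424 CPM (exact 95% Poisson intervals). Of 109 antibodies 38 (34.9%) were called in this gate, 20 higher (18.3%) and 18 lower (16.5%), on the same cells, and for some of them replicate 2 stood elsewhere. CD304 (neuropilin-1) was called higher at 102 per 10000 in replicate 1, against 3.88 and 4.50 in wild type, and stood at 4.42 in replicate 2. CD86 was called lower at 14.3, against 44.9 and 51.6, and stood at 133 in replicate 2. These examples were chosen after their values were seen, and no direction for the genotype is drawn from this test.

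Across all cells, 15 of 11997 genes tested (0.125%) passed the test, 4 higher (0.0333%) and 11 lower (0.0917%) in MHCI-/- mice, and 436 had an unadjusted p under 0.05. Without wild-type replicate 2, wild-type replicate 3 or MHCI-/- replicate 1 the test called 77, 25 or 7 genes. The CD8 lineage list, like the other lists, was chosen with earlier results of these data known. Of its genes, 5 of 21 tested were lower, none was higher, and 19 of 21 had a negative log2 fold change. The median of the list was -0.93, beside -0.0045 over all genes tested. *Nkg7* stood at 114 and 119 CPM in wild type and 14.2 and 14.5 CPM in MHCI-/- mice (log2 fold change -3.01 ± 0.12, adjusted p = 0.000296). *Itgae*, which encodes the integrin αE chain (CD103), stood at 28.1 and 24.3 against 2.29 and 1.295 CPM (-3.87 ± 0.26, adjusted p = 0.00506). *Runx3* stood at 89.3 and 85.7 against 35.3 and 40.8 CPM (-1.19 ± 0.11, adjusted p = 0.0196).

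The other called members were *Klrd1*, a natural killer receptor chain, at 19.0 and 17.3 against 2.57 and 0.911 CPM, and *Cst7*, an inhibitor of granule proteases, at 8.54 and 11.7 against 2.07 and 2.11 CPM. None of these 5 genes overlapped between the groups. The coreceptor genes did not pass the test, although they did not overlap either. *Cd8a* stood at 506 and 499 against 331 and 263 CPM (-0.75 ± 0.15, adjusted p = 0.319), and *Cd8b1* at 686 and 658 against 424 and 334 CPM (-0.82 ± 0.15, adjusted p = 0.262). *Cd4* stood at 161 and 132 against 177 and 190 CPM (0.34 ± 0.11, adjusted p = 0.9997), and all 14 genes of the CD4 lineage list had a positive log2 fold change (median 0.33) with none called. In a sum over all cells, fewer cells of a type and less RNA per cell cannot be told apart.

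**Figure D2:**
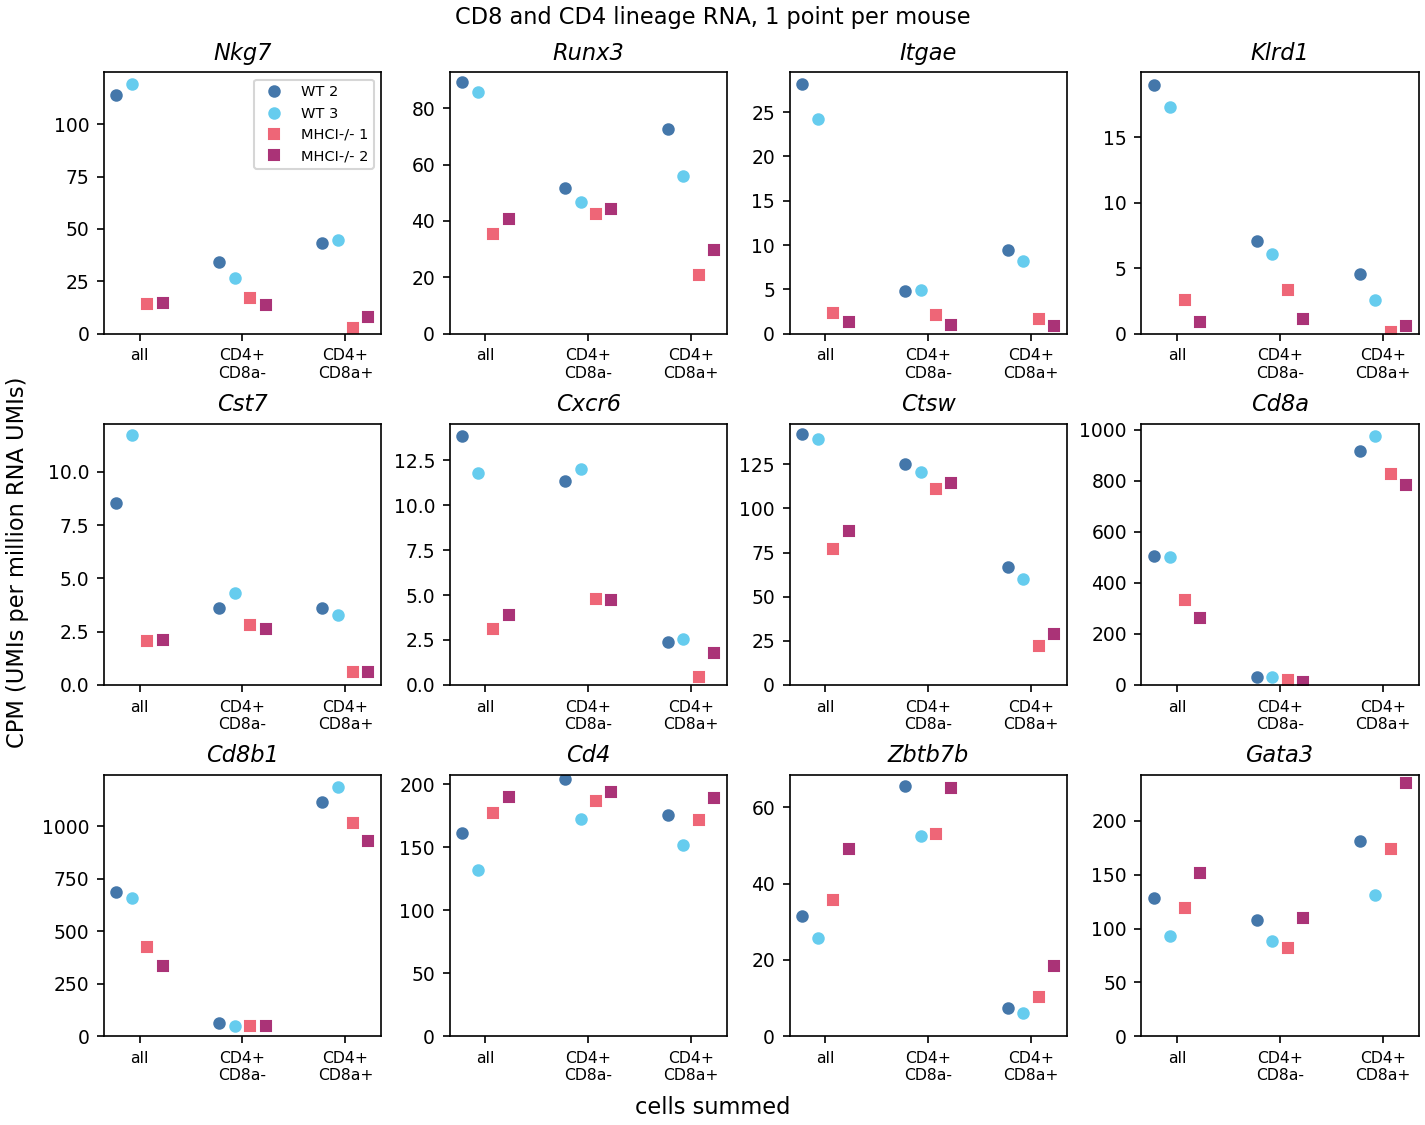
CPM of 12 CD8 and CD4 lineage genes in all cells and in the CD4+CD8a- and CD4+CD8a+ gates, with 1 point per mouse (circles wild type, squares MHCI-/-). *Nkg7* in all cells lies at 114 and 119 CPM in wild-type mice and at 14.2 and 14.5 CPM in MHCI-/- mice, while *Runx3* in the CD4+CD8a- gate lies between 42.6 and 51.6 CPM in all 4 mice.

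Within the CD4+CD8a- gate, which holds the CD4 lineage among other cells, few genes were called. The paper reports that CD8-fated cells pass through a stage with CD4 and low CD8, of which this gate may hold a part. The test called 4 of 11098 genes (0.036%), 2 higher (0.018%) and 2 lower (0.018%), and 328 had an unadjusted p under 0.05. Leaving out a mouse raised the count to between 28 (without MHCI-/- replicate 2) and 376 (without wild-type replicate 2). The 4 genes were *B2m*, *Eif3j1*, *Eif3j2* and *Rab4a*. No member of the CD4 lineage list was called in this gate, and its median was 0.0013 beside -0.0017 over all genes tested. Of 20 tested CD8 lineage members 3 had a positive log2 fold change (median -0.50) and none was called. All 22 listed genes summed to 719 and 535 against 509 and 505 CPM, without overlap. *Zbtb7b*, which specifies the CD4 lineage, stood at 65.5 and 52.6 CPM in wild type and 53.1 and 65.01 CPM in MHCI-/- mice, and *Gata3* at 108 and 88.4 against 81.6 and 110 CPM. Both overlapped between the groups, as did *Cd4* at 204 and 172 against 187 and 194 CPM. *Foxp3*, the factor of regulatory T cells, also overlapped, at 14.9 and 17.3 against 20.1 and 15.9 CPM. *Klf2*, at 510 and 674 against 529 and 628 CPM, and none of the other 19 genes of the maturation list was called.

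NKT and innate-like genes were lower in this gate in value. Of 22 tested members 20 had a negative log2 fold change, with a median of -1.08, and none was called. The summed level of the list was 212 and 209 CPM in wild type and 145 and 128 CPM in MHCI-/- mice, without overlap. Its members *Tbx21*, *Cxcr3*, *Il2rb*, *Gzma*, *Nkg7*, *Ccl5*, *Ly6c2* and *Xcl1* are also in the CD8 lineage list. The medians and sums given for the NKT list are therefore not separate from those of the CD8 lineage list. *Zbtb16*, which encodes the NKT factor PLZF, stood at 2.54 and 4.96 CPM against 0.0936 CPM and no UMI (adjusted p = 0.126). *Cxcr6*, a chemokine receptor of NKT cells, stood at 11.3 and 12.0 against 4.77 and 4.71 CPM (-1.28 ± 0.19, adjusted p = 0.169). In all cells 2 of 23 tested members were called, both lower (*Nkg7*, which is also in the CD8 lineage list, and *Cxcr6*), with a median of -1.57, beside 0.0917% lower and a median of -0.0045 over all genes tested. *Cxcr6* was counted there at 13.9 and 11.8 against 3.13 and 3.89 CPM (-1.86 ± 0.19, adjusted p = 0.0286).

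The CD4+CD8a+ gate holds cells before and during lineage choice. The paper also reports that CD8-fated cells pass through a double-positive phase again later. In sums over this gate, fewer cells of a type and less RNA per cell cannot be told apart. In the CD4+CD8a+ gate 4 of 10728 genes (0.0373%) were called, 2 higher (0.0186%) and 2 lower (0.0186%), and 229 had an unadjusted p under 0.05. Leaving out a mouse raised the count to between 12 (without MHCI-/- replicate 1) and 87 (without wild-type replicate 2). The 4 genes were *B2m*, *Sqrdl*, *AA467197* and *Eif3j2*, and no listed CD8 lineage, CD4 lineage or TCR signaling gene was among them. CD8 lineage genes were lower in value, with a median of -1.33 over 15 tested members beside -0.011 over all genes tested. The sum of all 22 listed genes was nearer between the groups, at 3427 and 3241 against 2929 and 2960 CPM. Of 14 tested CD4 lineage genes 13 were positive (median 0.33), and of 20 maturation genes 4 were (median -0.24). *Runx3* stood at 72.5 and 55.8 against 20.6 and 29.8 CPM (-1.36 ± 0.20, adjusted p = 0.311) and *Nkg7* at 43.3 and 44.6 against 2.49 and 7.82 CPM (-3.11 ± 0.40, adjusted p = 0.185), both without overlap. *Zbtb7b* stood at 7.48 and 6.03 against 10.2 and 18.4 CPM (1.05 ± 0.31, adjusted p = 0.9997). *Rag1*, of the recombinase of the early stage, overlapped at 216 and 255 against 228 and 180 CPM.

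The genotype effect was compared directly between the 2 gates, in 1 fit with the mouse as a block. The mix of cells within each gate was not held fixed. The term passed the test for 5 of 11378 genes (0.0439%), 4 higher (0.0352%) and 1 lower (0.00879%), and 470 had an unadjusted p under 0.05. *Runx3* stood at 72.5 and 55.8 against 20.6 and 29.8 CPM in the CD4+CD8a+ gate and at 51.6 and 46.7 against 42.6 and 44.3 CPM in the CD4+CD8a- gate, a difference of effects of 1.22 ± 0.17 (log2, adjusted p = 0.0304). *Ctsw*, a protease of cytotoxic cells, stood at 66.7 and 59.9 against 22.3 and 28.6 CPM in the CD4+CD8a+ gate and at 125 and 121 against 111 and 114 CPM in the CD4+CD8a- gate (1.23 ± 0.14, adjusted p = 0.00917). *Ccnd2*, a D-type cyclin, stood at 132 and 144 against 64.1 and 49.3 CPM in the CD4+CD8a+ gate and at 651 and 651 against 614 and 611 CPM in the CD4+CD8a- gate (1.24 ± 0.13, adjusted p = 0.00842).

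*Itm2a*, a target of TCR signaling, went the other way, at 913 and 633 against 1042 and 1489 CPM in the CD4+CD8a+ gate and 1077 and 862 against 816 and 1000 CPM in the CD4+CD8a- gate (-0.76 ± 0.10, adjusted p = 0.0177). *Ganc*, a glucosidase gene within 10 Mb of *B2m*, stood at 23.1 and 25.3 against 11.4 and 11.4 CPM in the CD4+CD8a+ gate and at 10.1 and 8.95 against 12.7 and 12.6 CPM in the CD4+CD8a- gate (1.51 ± 0.21, adjusted p = 0.0364). With thresholds 1.5 times higher 1 gene passed the test, and with thresholds 1.5 times lower 16 did.

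**Figure D3:**
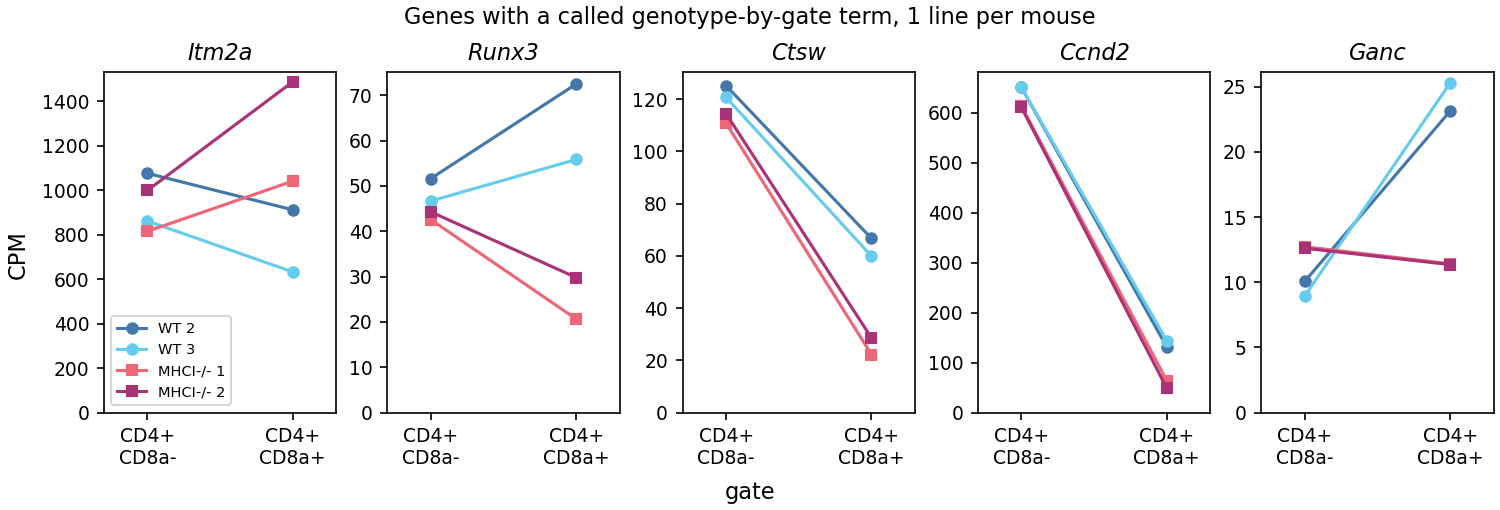
CPM in the CD4+CD8a- and CD4+CD8a+ gates of the 5 genes whose genotype effect differed between the gates, with 1 line per mouse. For *Runx3* the 4 mice lie between 42.6 and 51.6 CPM in the CD4+CD8a- gate, and the wild-type mice lie at 72.5 and 55.8 CPM above the MHCI-/- mice at 20.6 and 29.8 CPM in the CD4+CD8a+ gate.

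Some of the called genes lay beside *B2m* on chromosome 2. Of 171 tested genes within 10 Mb of *B2m*, 6 (3.51%), *B2m* included, were called in all cells, and of 11826 tested genes elsewhere 9 (0.0761%) were called. In the CD4+CD8a- gate 2 of 161 were called there (*B2m* and *Eif3j1*; 1.24%) against 2 of 10937 elsewhere (0.0183%), and in the CD4+CD8a+ gate 3 of 162 (1.85%) against 1 of 10566 (0.00946%). In the CD4-CD8a+ gate the shares called were 12 of 142 (8.45%) within and 827 of 9271 (8.92%) outside. *Eif3j1*, which encodes a subunit of a translation initiation factor, stood at 102 and 108 CPM in wild type and at 32.7 and 25.5 CPM in MHCI-/- mice (-1.84 ± 0.16, adjusted p = 0.0196). Its near-identical copy *Eif3j2*, which lies on chromosome 18, stood at 3.81 and 4.09 against 48.5 and 43.2 CPM (3.55 ± 0.16, adjusted p = 0.000446). In the CD4+CD8a- gate both were called again, in the same directions. Reads of such copies can be assigned to either, so that neither value is certain.

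*Sqrdl*, an enzyme of sulfide oxidation, stood at 10.6 and 6.71 against 1.01 and 0.911 CPM, and *Jmjd7* at 8.59 and 8.96 against 1.96 and 1.44 CPM. *Gm14091*, an uncharacterized gene model, stood at 0.126 and 0.141 against 7.61 and 3.84 CPM. *AA467197* stood at 1.01 and 1.76 against 10.9 and 9.88 CPM. Neither group overlapped with the other for these genes. *Rab4a*, a gene of endosome recycling on chromosome 8, stood at 2.60 and 2.96 against 12.5 and 17.3 CPM (2.44 ± 0.22, adjusted p = 0.0196). It stood at 2.15 CPM in wild-type replicate 1 and at 19.9 and 19.3 CPM in the MHCII-/- mice, whereas *Eif3j2* stood at 5.38 and 4.68 CPM in the MHCII-/- mice.

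**Figure D4:**
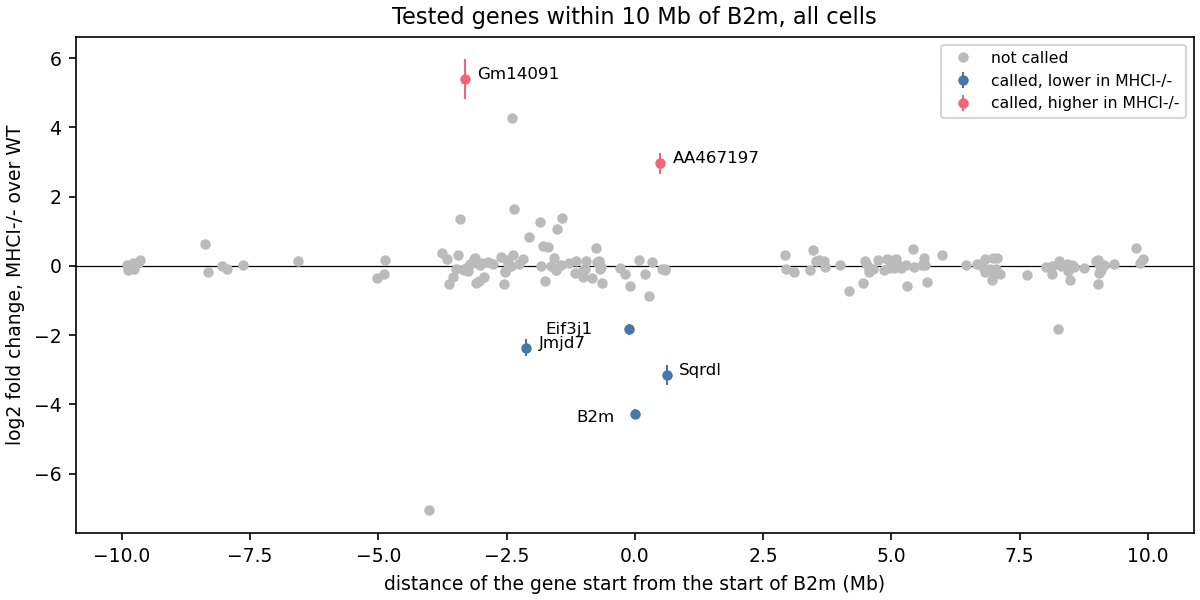
Log2 fold change of MHCI-/- over wild type in all cells (vertical) for the 171 tested genes within 10 Mb of *B2m*, by distance of the gene start from that of *B2m* in Mb (horizontal). Bars on called genes are standard errors, and the 6 called genes include *B2m* at -4.28 and *Eif3j1* at -1.84.

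RNA of MHC class I heavy chains and of the loading machinery did not pass the test in all cells. *H2-K1* stood at 1037 and 969 CPM in wild type and 1179 and 1295 CPM in MHCI-/- mice (0.31 ± 0.11, adjusted p = 0.9997), and *H2-D1* at 968 and 963 against 1101 and 1169 CPM (0.24 ± 0.11, adjusted p = 0.9997). The 17 tested heavy-chain and class I-like genes had a median of 0.20 and the 14 loading genes a median of 0.10, with none called. The panel antibody to H-2Kb bound to the peptide SIINFEKL was counted at 3.66 and 4.60 against 3.65 and 2.86 per 10000 antibody UMIs. It is directed to H-2Kb with that peptide, and the mice were given no agent. Its count therefore does not measure class I at the surface. In the CD4+CD8a- gate heavy-chain and class I-like genes summed to 3900 and 3743 against 4675 and 4710 CPM, without overlap. In the CD4+CD8a+ gate they overlapped, at 1626 and 1330 against 1398 and 1472 CPM, and none was called in either gate. All 20 tested interferon response genes had a positive log2 fold change in all cells (median 0.27), and none was called. Their summed level was 2349 and 2380 against 3085 and 2547 CPM, so that the groups did not overlap, and in the CD4+CD8a- gate it was 3481 and 3500 against 4494 and 3463 CPM, so that they did, with 20 of 20 members positive (median 0.26) and none called. In the CD4+CD8a+ gate 4 of 19 tested members had a positive log2 fold change (median -0.16), with none called. The sum of all 20 listed genes there was 1018 and 916 against 987 and 751 CPM.

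Surface proteins were tested over the 111 antibodies. In all cells 14 (12.6%) passed the test, 2 higher (1.8%) and 12 lower (10.8%) in MHCI-/- mice. Integrin β7, the partner of αE, was counted at 97.3 and 97.9 per 10000 in wild type and at 32.0 and 32.1 in MHCI-/- mice (-1.54 ± 0.17, adjusted p = 1.22e-06), and CD103, the αE chain itself, at 48.5 and 63.3 against 34.1 and 32.9 (-0.66 ± 0.16, adjusted p = 0.00509). In the CD4+CD8a- gate integrin β7 overlapped, at 43.1 and 55.5 against 43.8 and 43.8. *Itgb7* RNA stood at 160 and 178 against 141 and 175 CPM in all cells.

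NK-1.1, a natural killer cell receptor, was lower in every population tested, at 23.04 and 25.8 against 2.74 and 2.07 in all cells (-3.29 ± 0.15, adjusted p = 1.96e-11). Its gene *Klrb1c* had 88 and 17 UMIs in wild type and 2 and 3 UMIs in MHCI-/- mice. In CPM these were 3.69 and 1.20 against 0.112 and 0.144, and the gene was not called (-4.20 ± 0.72, adjusted p = 0.198). FceRIa was counted at 20.8 and 25.3 against 4.29 and 3.87, CD140a at 83.0 and 80.3 against 22.2 and 16.8, and CD14 at 4.95 and 6.27 against 2.30 and 2.10. *Fcer1a*, *Pdgfra* and *Cd14*, the genes of these last 3 antigens, had no UMI in any of the 4 mice, and the pairs of antibody and gene were chosen after the antibody values were seen. CD135, CD183, CD21/CD35, Notch 1, CD134 and the panendothelial cell antigen were lower too, with log2 fold changes from -1.59 to -0.77. RNA of *Tnfrsf4*, which encodes CD134, stood at 69.4 and 88.2 against 105 and 131 CPM. *Notch1* stood at 41.1 and 43.7 against 41.6 and 38.3 CPM. *Cxcr3*, the gene of CD183, stood at 3.85 and 4.38 against 3.02 and 3.31 CPM. *Cr2*, of CD21/CD35, stood at 1.17 and 0.423 against 1.34 and 0.767 CPM. *Flt3*, of CD135, stood at 0.545 and 0.141 against 0.503 and 0.192 CPM. None of these genes was called.

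**Figure D5:**
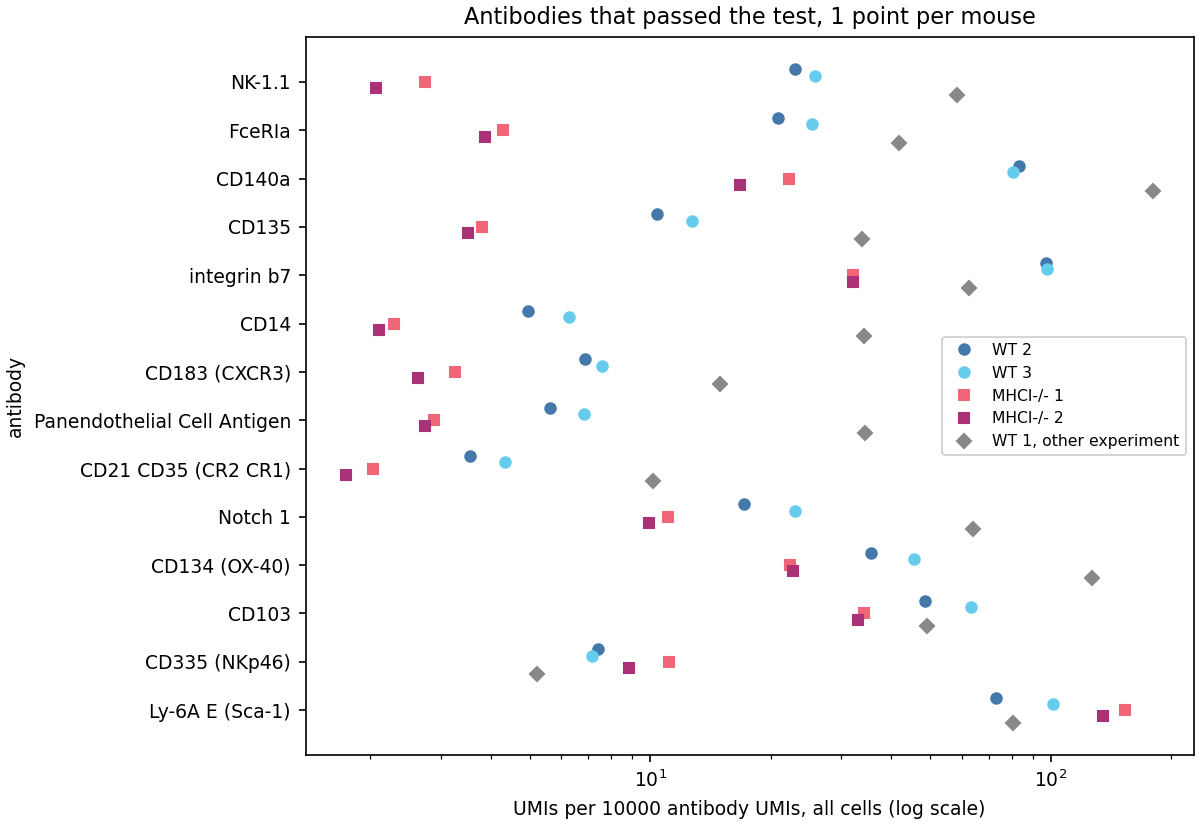
UMIs per 10000 antibody UMIs over all cells (log scale) for the 14 antibodies that passed the test, with 1 point per mouse. Wild-type replicate 1, of another experiment, is shown beside the 4 mice tested, and for CD14 it lies at 34.2, against 4.95 and 6.27 in the other wild-type mice.

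In the CD4+CD8a- gate 10 of 109 antibodies (9.17%) were lower and in the CD4+CD8a+ gate 11 of 109 (10.1%), with 0 (0%) higher in either, where CD4 and CD8a are left out of the counts because they set the gates, although the fit and the adjustment covered all 111. Higher antibodies were called when 1 mouse was left out, 17 in the CD4+CD8a- gate without MHCI-/- replicate 2, and 10 and 1 in the CD4+CD8a+ gate without wild-type replicate 2 and MHCI-/- replicate 2. At an unadjusted p under 0.05 there were 16 and 22 antibodies. These levels varied between experiments. With the wild-type mouse of the other experiment added, 3 antibodies were called in all cells, 6 in the CD4+CD8a- gate and none in the CD4+CD8a+ gate. In the MHCII-/- mice NK-1.1 was counted at 15.9 and 16.9 in all cells, between the groups and nearer to wild type, and CD134 at 28.0 and 28.6, between 35.6 and 45.7 in wild type and 22.3 and 22.7 in MHCI-/- mice. The genotype effect differed between both gates for 11 of 109 antibodies (10.1%), 1 higher (0.917%, integrin β7) and 10 lower (9.17%). Ly-6A/E (Sca-1) was higher in MHCI-/- mice, at 73.1 and 101.5 against 153 and 135 (0.80 ± 0.18, adjusted p = 0.00296). The other higher antibody in all cells was CD335 (NKp46), a natural killer receptor, at 7.43 and 7.16 against 11.1 and 8.84 (0.50 ± 0.14, adjusted p = 0.0197). *Ncr1*, the gene of CD335, had 0 and 1 UMIs in wild type and 3 and 0 UMIs in MHCI-/- mice. *Ly6a*, the gene of Ly-6A/E, stood at 40.5 and 46.2 against 91.5 and 62.1 CPM (adjusted p = 0.668). Both calls were lost without MHCI-/- replicate 1, where 0 of 10 called antibodies were higher, and with the wild-type mouse of the other experiment added, where 0 of 3 were.

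Antibodies to the proteins of selection and maturation did not pass the test in all cells. All 4 mice were sorted on CD5 and TCRβ with these tagged antibodies, so that the levels of both are bounded by the sort. CD5, which scales with TCR signal strength, was counted at 1805 and 1803 against 2106 and 2234, and the TCR β chain at 79.2 and 108 against 115 and 101.3. CD69, an activation marker, was counted at 57.7 and 55.0 against 62.2 and 68.4, and CD24 at 118 and 106 against 131 and 110. Within the CD4+CD8a- gate CD69 (82.8 and 75.2 against 77.5 and 83.0) and CD62L (243 and 204 against 233 and 250) overlapped between the groups. The antibody stages defined by CD69 and CD127 gave no stable difference. CD69+CD127+ cells made up 27.3% and 26.0% of the CD4+CD8a+ gate in wild type and 22.1% and 24.3% in MHCI-/- mice, and with 1 threshold per lane the order turned, at 17.8% and 17.0% against 22.4% and 24.1%. CD69-CD127+ cells made up 28.6% and 44.7% of the CD4+CD8a- gate against 27.6% and 28.3%. The CD127 threshold, at 2.54 per 10000, lies near a single UMI per cell at these antibody depths, and the part of depth in these shares was not tested.

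The CD4-CD8a- gate held 45 and 28 cells of wild-type mice and 21 and 20 cells of MHCI-/- mice. *B2m* was the only one of 4029 genes (0.0248%) called there, with 0 (0%) higher, at 1159 and 763 CPM in wild type against 16.3 and 44.7 CPM in MHCI-/- mice, and 204 genes had an unadjusted p under 0.05 (edgeR). All 9 tested genes of the γδ T cell list had a positive log2 fold change (median 0.83) and none was called. All 11 listed genes summed to 1414 and 791 against 2757 and 2763 CPM, and to 1806 CPM in wild-type replicate 1. Over all cells the same list overlapped between the groups, at 98.6 and 117 against 113 and 98.4 CPM. The CD4-CD8a- gate held a smaller share of MHCI-/- cells. More γδ T cells and fewer other cells in it cannot be told apart from these levels. Other lists also leaned to 1 side in this gate, with none called. Of 18 cell cycle genes 16 were positive (median 0.78), and of 85 tested ribosomal protein genes 2 were (median -0.25). Of 109 antibodies 13 (11.9%) were called, 3 higher (2.75%) and 10 lower (9.17%). The higher ones were CD62L and the antibodies to TCR γδ and to its Vγ2 chain. CD62L, a homing receptor, was counted at 267 and 350 against 1097 and 1106 per 10000 (2.02 ± 0.27, adjusted p = 0.0173). TCR γδ was counted at 45.2 and 42.5 against 120 and 168 (1.91 ± 0.36, adjusted p = 0.0387), and TCR Vγ2 at 15.3 and 19.4 against 47.1 and 94.7 (2.24 ± 0.50, adjusted p = 0.0464). In wild-type replicate 1 they stood at 149 and 109, within the MHCI-/- range or above it.

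The remaining lists held no called gene in all cells. TCR signaling targets had a median of 0.19 over 23 tested genes, early double-positive genes -0.14 over 15, maturation genes 0.09 over 20, regulatory T cell and agonist selection genes 0.34 over 14 and negative selection genes 0.11 over 10. The median was -0.04 over 10 γδ T cell genes, -0.30 over 18 cell cycle genes and 0.10 over 8 dissociation and stress genes. Of the variable segments of the receptor, 59 Trav genes (median 0.07) and 20 Trbv genes (median -0.24) were tested, and no Traj gene passed the filter on low counts. Ribosomal protein genes (102 tested), mitochondrial genes (13) and Gimap genes (8) held no call either. In the CD4+CD8a- and CD4+CD8a+ gates no member of any of these lists was called.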

How the data were processed

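Thymocytes were stained with TotalSeq-A antibodies, sorted and loaded on 10x 3′ v3 lanes, 1 per mouse. The authors aligned reads to mm10 (GRCm38) with Cell Ranger 3.1.0 and deposited matrices of UMI counts per gene and antibody for each lane, which were used as deposited. Cells with at most 15% mitochondrial UMIs and at least 200 genes were kept, and counts were summed per mouse, over all cells and within CD4 and CD8a antibody gates of at least 10 cells. Sums were tested with edgeR 4.0.16 (quasi-likelihood, TMM, filterByExpr, Benjamini-Hochberg over all genes tested, adjusted p under 0.05) in R 4.3.3. Antibodies were tested in the same way without a filter, with adjustment over all 111 and with CD4 and CD8a left out of counts in gates, and the difference between gates with the mouse as a block. Standard errors were back-calculated from the fold change and its F statistic. Shares were compared by exact permutation over mice. In data simulated for the all-cell RNA comparison (11997 genes, 200 changed), 72% of genes changed by 1 and 97% of genes changed by 2 (log2) were recovered, with 7 false calls. The simulation used the same fixed dispersion for every gene, which was not estimated from these mice. Its rates therefore do not give the power of the tests reported here.

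Gate thresholds were set at the valley of the pooled density. 3 versions of this rule were tried. The first took the valley between the highest modes, the second ignored modes under 1% of the highest, and the one used needs 0.2% of the density on each side and otherwise takes Otsu's threshold. The last was chosen after the shares that the second gave with 1 threshold per lane had been seen. The pooled CD4, CD8a and CD69 thresholds were the same under all 3, and the CD127 threshold was not.

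The members, gene lists and tests were chosen with earlier results of these data known. Genes named are *B2m*, the called genes with the 10 largest changes in each direction at 10 CPM or more, called members of the gene lists, called genes within 10 Mb of *B2m* and a fixed set of lineage genes. Of the 15 genes called in all cells, *Adgrg5* met none of these and is not described. CD103, *Ctsw*, *Ccnd2*, *Ganc* and *Itm2a* were added after their values were seen. So were *Itgb7*, *Klrb1c*, *Fcer1a*, *Pdgfra*, *Cd14*, *Tnfrsf4*, *Notch1*, *Cxcr3*, *Cr2*, *Flt3*, *Ncr1* and *Ly6a*, genes of called antibodies. CD357 and its gene were also looked at and are not described. Doublets were kept, and were removed only as an alternative (Scrublet, 0.8% per 1000 barcodes). Gene positions are from GENCODE. Matrices pooled over samples were not used. Nothing in the labels says that the mice were from separate litters, and p-values measure the spread between these 4 animals only. MHCI-/- and wild-type mice were of separate lines, so that an effect of *B2m* and one of the line cannot be told apart.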

Additional observations from a re-analysis of the deposited data

Results flagged for a closer look

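The genotype effect differed between the CD4+CD8a- and CD4+CD8a+ gates, by a test of the difference itself, for 5 genes and 11 antibodies. Values are the log2 fold change (MHCI-/- over wild type) in the CD4+CD8a- gate minus that in the CD4+CD8a+ gate. They were 1.22 for *Runx3*, 1.24 for *Ccnd2*, 1.23 for *Ctsw*, 1.51 for *Ganc* and -0.76 for *Itm2a*. Among 109 antibodies (10.1% called) integrin β7 had a difference of 0.91, with a larger reduction in the CD4+CD8a+ gate. The other 10 were reduced more in the CD4+CD8a- gate: NK-1.1 by -1.64, FceRIa by -1.34, CD140a by -1.34, CD135 by -1.29, CD14 by -1.05, CD183 by -0.98, the panendothelial cell antigen by -0.92, Notch 1 by -0.88, CD21/CD35 by -0.87 and CD134 by -0.64. With library size in place of TMM 3 genes and 3 antibodies passed the test. No group held 4 or more mice, so single mice were not tested for standing apart.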

How the results depend on the processing

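Counts of called genes moved with the tool and the mice. In all cells 15 genes were called, and 47 by DESeq2, 204 without the filter on low counts and 24 with the MHCII-/- mice in the fit. In the CD4+CD8a- gate (4) these were 18, 99 and 13, with 13 by library size in place of TMM and 9 with wild-type replicate 1 added. In the CD4+CD8a+ gate (4) they were 18, 24 and 8, with 12 with wild-type replicate 1 added and 2 with 1 threshold per lane under the rule used or the earlier one. In the CD4-CD8a+ gate (839) DESeq2 called 304, thresholds 1.5 times lower 517, 1 threshold per lane 162 and the earlier rule 2173. Leaving out 1 mouse gave 7 to 77 genes in all cells, 28 to 376 in the CD4+CD8a- gate and 12 to 87 in the CD4+CD8a+ gate, the most without wild-type replicate 2 in each. The lone sample of an arm was then assumed to vary like the other group. No such fit was possible in the CD4-CD8a+ gate. With wild-type replicate 1 added, a choice made after seeing the data, 3, 6 and 0 antibodies were called in all cells and in the CD4+CD8a- and CD4+CD8a+ gates, and leaving out 1 mouse gave 10 to 21, 6 to 27 and 8 to 22. The difference between gates passed for 3 genes by library size, 1 with higher and 16 with lower thresholds, and for 3 antibodies by library size.

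Differences in shares (MHCI-/- minus wild type, percentage points) depended on the threshold rule, whose earlier versions were also run. For CD4-CD8a+ (-10.7) the earlier rule per lane gave 0.971, and wild-type replicate 1 added gave -8.72. For CD4+CD8a+ (-4.41) the earlier rule gave -17.4, and the difference was 0.556 without wild-type replicate 2. For CD4-CD8a- (-0.527) it was -0.764 and -0.225 with higher and lower thresholds, -0.759 per lane under the rule used and under the first, and 1.81 under the earlier rule. For CD69+CD127+ (-3.49) it was 5.86 per lane, 5.20 under the earlier rule, -17.4 per lane and 0 pooled under the first rule, and -6.03 with wild-type replicate 1 added. For CD69-CD127+ (-8.68) the first rule gave -35.1 per lane and 0 pooled. Leaving out 1 mouse gave 12.5 to 18.8 for CD4+CD8a-, -9.38 to 0.556 for CD4+CD8a+, -12.5 to -8.98 for CD4-CD8a+, -0.618 to -0.436 for CD4-CD8a-, -4.57 to -2.41 for CD69+CD127+ and -16.7 to -0.618 for CD69-CD127+. The CD304 antibody in all cells had a log2 fold change from -0.49 to 0.52 when 1 mouse was left out, against -0.04, with 0.52 without wild-type replicate 3. The cause of these changes was not tested. No paired analysis was possible because the groups share only replicate number 2. With 2 mice against 2, share tests cannot pass the threshold.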
